A study of Mus musculus with 16 samples.

Results

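The effect of citrus accord on reporter enrichment was read as 1 value per gene and pool of mice: the log2 expression value of GFP+ cells minus that of GFP- cells of the same pool. Enrichment in 4 pools exposed to citrus accord was compared with enrichment in 4 pools exposed to vehicle, so all 16 arrays of the series entered, 8 from citrus and 8 from vehicle pools. The cells came from the olfactory mucosa of S100a5-tauGFP mice, in which a GFP marker is tied to S100a5, whose product binds calcium and rises in olfactory sensory neurons when they are active. All groups carried this reporter, and both gates were sorted by flow cytometry from the same kind of tissue. Mice of both sexes, 24 in all and 7 to 12 weeks old, were housed singly for 40 h in chambers with an air flow of 3.1 L/min, and from 26 h on received 10 s pulses every 20 min of either filtered air (vehicle) or citrus accord at 100%. Each array held the RNA of 3 mice, and the labels do not give which mice, of which sex, made up which pool. The design text states that odor and vehicle groups were exposed simultaneously.

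Each mature olfactory sensory neuron expresses 1 odorant receptor gene out of a very large family. Receptors of the family are G protein-coupled and signal through a cAMP cascade, and prolonged activation of a neuron raises its S100a5. When an odorant activates the neurons of a given receptor, those neurons make more reporter, and the mRNA of that receptor shifts from the GFP- to the GFP+ sort. A receptor that responds to a mixture is therefore looked for as a gene whose enrichment is larger in stimulated than in vehicle pools. In sorted bulk cells, fewer neurons with a receptor and less receptor mRNA per neuron cannot be told apart.

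The receptors the comparison turned on are shown by the first 50 bases of their coding sequences, from RefSeq on GRCm38.p6. Of 1106 receptor genes on the array, 936 had a reference window around the start of the gene, and 685 of these had an ATG at the annotated start. Capitals mark the start codon in Olfr1284 (chr2:111379002-111379051, plus strand), Olfr353 (chr2:36890797-36890846, minus strand) and Olfr704 (chr7:106864982-106865031, plus strand). For Olfr351 (chr2:36860297-36860346, minus strand), the neighbour of Olfr353 with the closest match, capitals mark the bases that differ from Olfr353.
Olfr1284: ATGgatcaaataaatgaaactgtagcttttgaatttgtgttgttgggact
Olfr353: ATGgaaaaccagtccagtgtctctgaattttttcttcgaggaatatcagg
Olfr704: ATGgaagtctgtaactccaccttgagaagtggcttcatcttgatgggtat
Olfr351: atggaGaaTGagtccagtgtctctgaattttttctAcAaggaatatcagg
Olfr353 and Olfr351 had 45 of 50 bases in common. Olfr353 had 14 of 50 bases in common with Olfr1284 and 15 with Olfr704, and Olfr1284 had 23 in common with Olfr704. The stretches are a description of identity at the start of the coding sequence only.

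Olfr1284, a class II odorant receptor of the family MOR245, gained enrichment in GFP+ cells under citrus accord. Its GFP+ minus GFP- value was 0.77, 0.69, 1.04 and 1.73 in vehicle pools 1 to 4 and 3.48, 3.49, 3.85 and 3.25 in citrus pools 1 to 4. Every citrus pool lay above every vehicle pool, and the spread within the citrus pools (SD 0.25, n = 4) and within the vehicle pools (SD 0.47, n = 4) was small beside the gap. The difference was 2.46 ± 0.26 (SE) on the log2 scale, and it was the only one of 19572 probe sets past the threshold (limma, Benjamini-Hochberg adjusted p = 0.0299, 4 pools against 4), which is 0.00511% of those tested in the direction of higher enrichment and 0% in the other. Leaving out vehicle pool 4 kept the call (adjusted p = 0.00873), and leaving out any other single pool of either stimulus ended it (adjusted p from 0.0756 to 0.2), with the difference between 2.34 and 2.68 throughout. With odor and vehicle pools of 1 replicate number taken as pairs, 0 probe sets passed and the adjusted p of Olfr1284 in limma was 0.0898. The call also ended with the pool as a random effect (limma, adjusted p = 0.586), with a trended and robust prior (0.238) and with the gates not paired (0.999).

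The levels behind this value moved in both gates. In GFP+ cells the log2 level of Olfr1284 was 11.04, 11.24, 9.84 and 9.98 in citrus pools 1 to 4, against 9.48, 9.09, 8.84 and 9.81 in vehicle pools. In GFP- cells it was 7.57, 7.75, 5.99 and 6.74 under citrus, against 8.71, 8.40, 7.81 and 8.07 under vehicle. The stimuli did not overlap in either gate, though only narrowly, and the means differed by 1.22 in GFP+ and by -1.24 in GFP- cells. Negative-control probes, which match no gene, had a 95th percentile of 8.75 to 9.71 per array, and Olfr1284 exceeded it on 6 of 16 arrays.

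Olfr353, a class II receptor of the family MOR127, had GFP+ minus GFP- values of opposite sign under the stimuli. Its GFP+ minus GFP- value was -1.73, -1.32, -1.49 and -1.59 in vehicle pools 1 to 4 and 0.45, 1.37, 2.27 and 0.85 in citrus pools 1 to 4. The sign was thus negative in each vehicle pool and positive in each citrus pool, at levels below the 95th percentile of negative controls on all 16 arrays. The difference of 2.77 ± 0.34 (SE) missed the threshold (limma, adjusted p = 0.0677, and 0.0898 with pools paired across stimuli), and centring the arrays on the median of all probe sets, of mature neuron markers or of receptors brought it past (limma, adjusted p = 0.0378, 0.022 and 0.0164). In GFP+ cells its level was 7.27, 7.46, 7.42 and 6.45 under citrus and 5.27, 5.28, 5.13 and 5.60 under vehicle. In GFP- cells it was 6.81, 6.09, 5.15 and 5.60 under citrus and 7.00, 6.60, 6.62 and 7.19 under vehicle. The GFP+ levels did not overlap between the stimuli and the GFP- levels did.

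Olfr704, a class II receptor listed under the pseudogene name MOR283-12P, had the widest spread among these receptors. Its enrichment was -2.25, -1.15, -0.58 and -0.60 in vehicle pools 1 to 4 and 0.63, 0.59, 2.74 and 0.69 in citrus pools 1 to 4. The difference of 2.30 ± 0.52 (SE) did not pass (limma, adjusted p = 0.907, and 0.372 with pools paired across stimuli), and it was 1.78 without citrus pool 3. In GFP+ cells its level was 6.77, 7.29, 7.60 and 6.45 under citrus and 4.94, 5.08, 5.46 and 5.48 under vehicle. In GFP- cells it was 6.14, 6.70, 4.86 and 5.75 against 7.19, 6.23, 6.03 and 6.08. Olfr353 and Olfr704 were below the 95th percentile of negative controls on all 16 arrays, so by level alone neither could be told from background. In exact permutation tests of 1 gene at a time (two-sided, 70 assignments of 8 pools), Olfr1284, Olfr353 and Olfr704 each gave p = 0.0286, the smallest this design allows. Any gene whose citrus pools all lie above its vehicle pools reaches it, and the assignments take no account of the replicate numbers, so for genes chosen with these values known it adds no support.

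**Figure D1:**
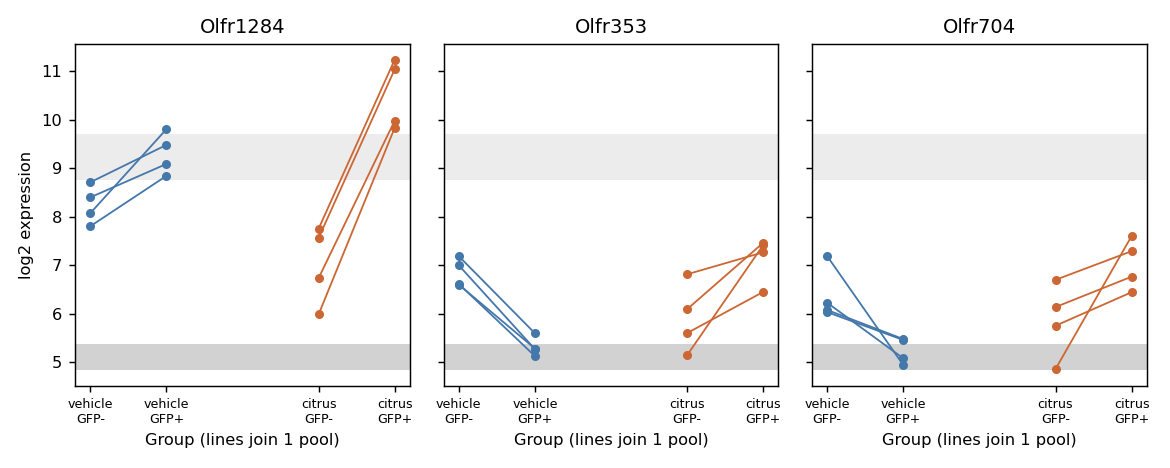
Log2 expression of Olfr1284, Olfr353 and Olfr704 on each array, with a line joining the GFP- and GFP+ arrays of 1 pool (blue, vehicle; orange, citrus; n = 4 pools each). The darker band spans the medians of negative-control probes over the arrays (4.84 to 5.37) and the lighter band their 95th percentiles (8.75 to 9.71). The lines of Olfr353 and Olfr704 slope down in vehicle and up in citrus pools, and those of Olfr1284 slope up in both and more steeply in citrus pools.

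The other receptors among the 10 with the smallest p were all of class II, as were 958 of all 1106 receptors, and none passed the threshold. Their values were 2.21 ± 0.38 (SE) for Olfr1260, 1.77 ± 0.31 for Olfr1323, 1.48 ± 0.26 for Olfr190, 1.74 ± 0.34 for Olfr1264, 2.23 ± 0.45 for Olfr1200 and 1.75 ± 0.40 for Olfr286, all higher under citrus (limma, adjusted p from 0.514 to 0.907). Olfr769 was the only one lower under citrus, with a difference of -1.53 ± 0.35 (limma, adjusted p = 0.907). None of these 10 had a citrus pool that overlapped a vehicle pool, a separation that 1.52% of all probe sets showed upwards and 1.67% downwards. They were picked for a small p, so their separation is a description.

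These receptors started from very different enrichment. Olfr1323 ranged from 3.12 to 4.24 in vehicle pools and from 4.72 to 5.89 in citrus pools, and Olfr1264 from 2.53 to 4.00 and from 4.54 to 5.55. Both were strongly enriched with air alone. Olfr1200 was depleted with air alone, at -2.85, -0.39, -1.91 and -1.30 in vehicle pools 1 to 4, and stood at 0.51, 0.08, 1.18 and 0.69 in citrus pools 1 to 4. Olfr769 was depleted under both stimuli, with a mean of -2.21 (SD 0.70, n = 4) under vehicle and -3.75 (SD 0.44, n = 4) under citrus. Olfr1260, Olfr1264 and Olfr1200 exceeded the 95th percentile of negative controls on all 16 arrays, which Olfr1284 did not. Their adjusted p-values in limma were 0.514, 0.840 and 0.907.

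**Figure D2:**
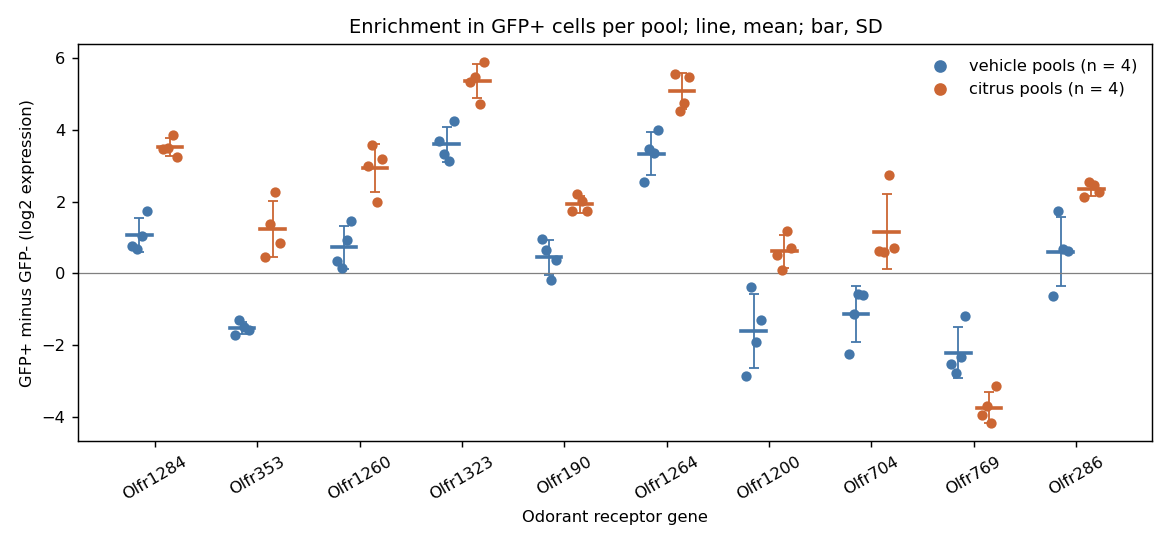
Enrichment (GFP+ minus GFP-, log2) of the 10 receptors with the smallest p in each vehicle pool (blue) and citrus pool (orange), with the mean as a line and the SD as a bar (n = 4 pools per stimulus). Citrus pools lie above vehicle pools for 9 receptors and below them for Olfr769, with starting points between a mean of -2.21 and 3.59 in vehicle pools.

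In 9 of the 10 receptors the GFP+ level was higher and the GFP- level lower under citrus, a pattern that 330 of all 1106 receptors showed. The 10 were picked for a small p of the difference in GFP+ minus GFP- values, which favours this pattern. Of the 76 receptors with an unadjusted p under 0.05 in limma and higher enrichment, 65 showed it. The weight of the gates differed between the 10. In Olfr1264 the GFP+ part was 0.22 and the GFP- part -1.52, and in Olfr1323 they were 0.48 and -1.29. In Olfr353 they were 1.83 and -0.94, in Olfr704 1.79 and -0.52, and in Olfr1200 1.67 and -0.56. Olfr769 was lower in GFP+ cells by -1.47 and differed by 0.06 in GFP- cells. The difference of enrichment was thus mainly in GFP- cells for Olfr1264 (1.74) and Olfr1323 (1.77). It was mainly in GFP+ cells for Olfr353 (2.77), Olfr704 (2.30) and Olfr1200 (2.23), where it was larger. The GFP- levels of Olfr1323 (5.35 to 7.89) and the GFP+ levels of Olfr769 (4.73 to 7.45) all lay below the 95th percentile of negative controls. So did the levels of Olfr353 and Olfr704 in both gates, and background limits these parts. The parts carry no test of their own here.

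**Figure D3:**
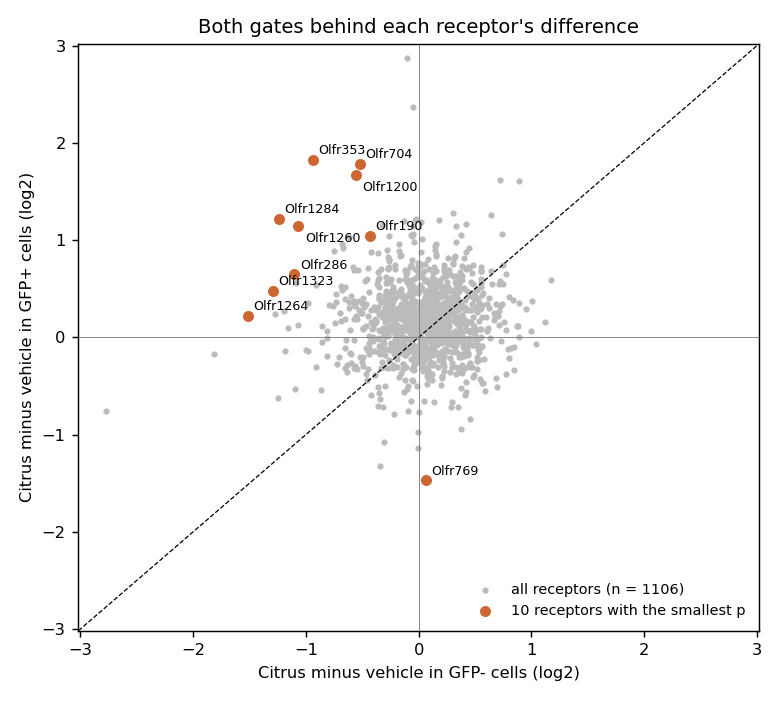
Citrus minus vehicle log2 level of each receptor in GFP- cells (horizontal) and in GFP+ cells (vertical), with the 10 receptors of smallest p in orange and all 1106 in grey. The dashed line marks equal change in both gates, where enrichment does not differ, and 9 of the 10 lie in the upper left quadrant.

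Chromosome 2 held Olfr1284, Olfr353, Olfr1260, Olfr1264 and Olfr1200, which is 5 of the 10, and 284 of all 1106 receptors (25.7%). Genes next to the 3 receptors described first had smaller differences. Olfr351 (MOR127-2), which had 45 of 50 bases in common with Olfr353, had a difference of 1.31 ± 0.38 (SE), with -0.24, -0.15, 0.70 and 1.09 in vehicle pools 1 to 4 and 0.78, 1.70, 2.37 and 1.78 in citrus pools 1 to 4. Its stimuli overlapped, and it did not pass (limma, adjusted p = 0.907). Olfr354 (MOR127-4), with 21 of 50 bases in common, had a difference of 0.00 ± 0.30. The other neighbours of Olfr353, which were Olfr350, Olfr352, Olfr355 and Olfr356, had differences between -0.20 and 0.33. Those of Olfr1284, Olfr1281 to Olfr1283 and Olfr1286 to Olfr1288, had values between -0.56 and 0.35. Those of Olfr704, Olfr701 to Olfr703 and Olfr705 to Olfr707, had values between -0.02 and 0.73. In each of these neighbours the citrus and vehicle pools overlapped.

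The receptors most like each of the 3 in start sequence also differed from it in value. For Olfr1284 the closest was Olfr1276, with 38 of 50 bases in common and a difference of -0.26 ± 0.32 (SE). For Olfr704 they were Olfr706, with 43 bases and 0.24 ± 0.39, and Olfr698, with 40 bases and 0.62 ± 0.29. The differences between these genes were not tested.

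Receptors whose enrichment over the 8 pools was most like that of Olfr353 were Olfr1284 (Pearson r = 0.938), Olfr704 (0.916) and Olfr1183 (0.906). Closest to Olfr1284 after Olfr353 were Olfr1453 (r = 0.905) and Olfr1260 (0.898). The mean level of Olfr1453 was 3.27, below the lowest background median of 4.84. Closest to Olfr704 were Olfr30 (r = 0.935), Olfr353 and Olfr1123 (0.914). The pools fall into the 2 stimuli, and in each pool all receptors were read on the same arrays, so these correlations describe a common contrast and carry no test. Olfr1123 had the largest difference of all receptors, 2.98 ± 0.80 (SE), and its adjusted p in limma was 0.907. It was depleted from GFP+ cells in every pool, at -8.06, -4.98, -7.24 and -6.20 in vehicle pools 1 to 4 and -3.97, -4.82, -1.29 and -4.48 in citrus pools 1 to 4. Its GFP+ levels in vehicle pools 1 to 4 were 4.29, 7.92, 5.15 and 6.46, all below the 95th percentile of negative controls. In vehicle pools 1 and 3 they were below the median of negative controls (4.95 and 5.37), so background limits these values.

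Over the whole receptor family the calls leaned upwards. Without adjustment, 76 of 1106 receptors (6.87%) had p under 0.05 with higher enrichment under citrus and 22 (1.99%) with lower, against 2.5% and 2.54% of all probe sets. Citrus pools lay wholly above vehicle pools for 26 receptors (2.35%) and wholly below for 4 (0.362%), against 1.52% and 1.67% of all probe sets. Of the 26, 23 were class II and 3 class I, and 10 (38.5%) lay on chromosome 2. Of all 1106 receptors, 958 were class II and 122 class I, and 284 (25.7%) lay on chromosome 2. With pools paired across stimuli the unadjusted counts were 153 of 1106 receptors higher and 51 lower. Over all 19572 probe sets they were 645 (3.3%) and 620 (3.17%), so the receptor shares were larger in both directions. The counts turned downwards with the scaling, for receptors and for all probe sets. With each array centred on its receptor median, 31 receptors were higher and 81 lower. Over all 19572 probe sets 38 (0.194%) were higher and 1170 (5.98%) lower, so 31 of those 38 were receptors. That centring moved the median difference of all probe sets from -0.01 to -0.30.

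The median difference over the receptors was 0.13, against -0.01 over all probe sets, and it was -0.17 with the centring on receptors. Class II receptors had a median of 0.16 (958 genes) and class I receptors one of -0.04 (122 genes). These were 0.06 and -0.10 without vehicle pool 1, and 0.07 and -0.28 without citrus pool 3. Class I receptors are the older, fish-like branch of the family, encoded in 1 cluster. Median receptor enrichment per pool was 0.33, 0.58, 0.59 and 0.74 in vehicle pools 1 to 4 and 0.51, 0.51, 1.10 and 0.84 in citrus pools 1 to 4, so the stimuli overlapped. Citrus pool 3 and vehicle pool 1 set most of the median difference, which was 0.02 without the former and 0.04 without the latter. Without citrus pool 3 the unadjusted counts were 65 receptors higher (5.88%) and 51 lower, against 1.97% and 2.16% of all probe sets. There the receptor shares were larger in both directions. Without vehicle pool 1 the counts were 82 (7.41%) and 41, against 2.96% and 2.69% of all probe sets. Without vehicle pool 4 they were 119 (10.8%) and 18, against 2.72% and 2.58%. Across receptors, enrichment in 1 pool resembled that in another pool of the other stimulus (r from 0.848 to 0.943) as much as that in a pool of the same stimulus (0.863 to 0.941 within citrus, 0.848 to 0.924 within vehicle).

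Pools with the same replicate number deviated together, and more so across receptors than across other genes. After the mean of each stimulus was taken out, odor and vehicle pools of 1 number correlated at r = 0.557, 0.429, 0.576 and 0.293 over the 1106 receptors, and every pool correlated best with the pool of its own number. The highest value for unlike numbers was 0.252. Over all probe sets the 4 values were 0.223, 0.151, 0.173 and 0.175, and over genes other than receptors 0.114, 0.0936, 0.0358 and 0.15. For number 3 the value over other genes was lower than that with an unlike number (0.065). Receptors in GFP+ arrays alone gave 0.646, 0.394, 0.693 and 0.318, and unlike numbers up to 0.381. In GFP- arrays they gave 0.327, 0.0283, 0.122 and 0.0803, and unlike numbers up to 0.127. What the pools of 1 number share was not tested.

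**Figure D4:**
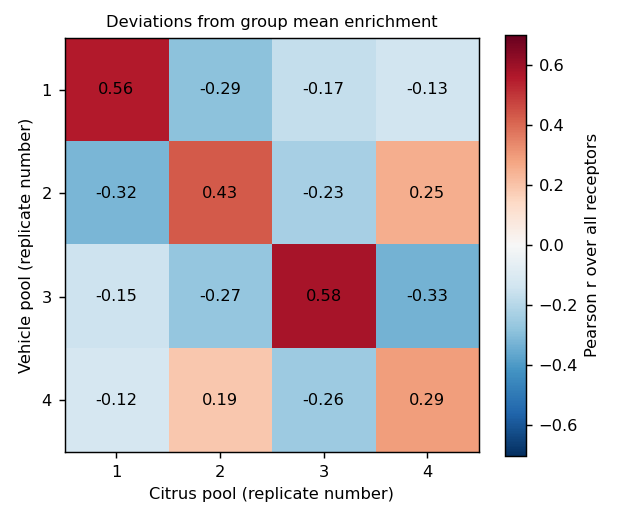
Pearson r between vehicle pools (rows) and citrus pools (columns) of the deviations of receptor enrichment from the stimulus mean, over 1106 receptors. The diagonal, where replicate numbers match, holds the highest value of each row and column, from 0.29 to 0.58.

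The reporter's own gene served as a check of the gate. S100a5 was enriched in GFP+ cells in every pool, with a mean of 1.91 (SD 0.23, n = 4) under vehicle and 1.88 (SD 0.14, n = 4) under citrus. The difference in enrichment was -0.03 ± 0.20 (SE, exact permutation p = 0.83), with a 95% interval from -0.47 to 0.40. Its level was higher under citrus by 0.57 in GFP+ and by 0.61 in GFP- cells. In GFP+ cells it was 17.53, 17.45, 17.44 and 17.30 under citrus and 16.74, 17.08, 16.76 and 16.84 under vehicle, and in GFP- cells the stimuli did not overlap either. Omp, the marker of mature sensory neurons, had a difference of -0.09 ± 0.20 (exact permutation p = 0.543), and its level was near the top of the scale on all arrays in both gates. Omp was thus high in GFP- cells too.

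Other genes of the neurons were described by lists, and 0 members of any of them passed the threshold. Among 26 activity-linked genes, 2 had an unadjusted p under 0.05 with higher enrichment and 0 with lower, against 2.5% and 2.54% of all probe sets, and the median difference was 0.03. Camk2n1, an inhibitor of CaM kinase II, was at -0.76, -1.40, -0.09 and -0.50 in vehicle pools 1 to 4 and at 0.61, 0.68, 1.28 and 0.69 in citrus pools 1 to 4. Its difference was 1.51 ± 0.29 (SE, limma, adjusted p = 0.840), with 2.74 in GFP+ and 1.23 in GFP- cells. Pcdh10, a protocadherin of the cell surface, differed by 4.22 in GFP+ and 3.57 in GFP- cells, which left 0.65 ± 0.28 for enrichment (limma, adjusted p = 0.907). Efna5, an ephrin, had a difference of 0.63 ± 0.30. For Pcdh10 the levels in the gates thus moved far more than the enrichment.

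The transduction cascade, which turns receptor binding into a current, had 0 of 24 members with an unadjusted p under 0.05 and a median of 0.06. Over all probe sets 2.5% had such a p with higher and 2.54% with lower enrichment. Pde4a, a cAMP phosphodiesterase, had 0.57 ± 0.33 (SE), Gnal, the G protein subunit that couples receptors to adenylyl cyclase, 0.39 ± 0.24, and Grk3, a receptor kinase, 0.33 ± 0.24. Of 16 mature neuron markers, 0 had an unadjusted p under 0.05, and the median was 0.12. Gnal, named above, and the transcription factor Ebf2, at 0.37 ± 0.21, were among the members with the largest values. Kcnk4, a potassium channel, had 0.44 ± 0.27, but it and Grk3 had mean levels of 4.07 and 4.50, below the lowest background median of 4.84, so their differences have no order among the others. Their signs turned when values under background were set to it.

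Axon guidance genes, which direct axons to their glomeruli, had a median of 0.14. An unadjusted p under 0.05 was found for 2 of 23 members with a positive and 1 with a negative difference. Over all probe sets the shares were 2.5% and 2.54%, so these are few genes. Dscam, an adhesion molecule of axons, had 0.82 ± 0.30 (SE), of which 0.12 came from GFP+ and -0.71 from GFP- cells. In the synaptic vesicle list 12 of 13 members had a positive difference, against 9578 of 19572 probe sets. The median was 0.25, and -0.05 with each array centred on its receptor median. In this list 1 member had an unadjusted p under 0.05, with a positive difference, against 2.5% of all probe sets. Syn1, which tethers vesicles, had 0.82 ± 0.33, Vamp2, the vesicle SNARE, 0.53 ± 0.29, and Sv2a, a vesicle glycoprotein, 0.46 ± 0.29. In vehicle pool 2 Syn1 was at -0.89 and the other vehicle pools were between 0.33 and 0.45. The same centring gave medians of -0.16 for axon guidance genes, -0.26 for activity-linked genes, -0.23 for the transduction cascade, -0.17 for mature and -0.25 for immature neuron markers. Here and in the lists below, it shifts every probe set by the same amount, so a changed sign tells nothing of a single list.

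Immature neuron markers had an unadjusted p under 0.05 for 1 of 17 members with a positive and 1 with a negative difference. Over all probe sets the shares were 2.5% and 2.54%. The median of these markers was 0.05. Dpysl3, a growth cone protein, was depleted from GFP+ cells by -3.55, -3.74, -3.59 and -3.94 in vehicle pools 1 to 4, and its difference was 0.69 ± 0.20 (SE). Gng8, a G protein subunit of young neurons, had -0.53 ± 0.24, and Emx2, a homeobox regulator, 0.49 ± 0.25. The directions within this list were thus mixed. Cycling progenitor genes had 0 of 10 with an unadjusted p under 0.05 and a median of -0.16. Mcm5 had -0.58 ± 0.44, Cdk1 -0.42 ± 0.28 and Neurog1 -0.30 ± 0.24. The mean levels of Cdk1 (3.32) and Neurog1 (3.55) were below the lowest background median of 4.84, so background limits their values.

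Energy and stress genes had mostly negative differences. Of 23 subunits of oxidative phosphorylation, 19 were negative, 2 of them at an unadjusted p under 0.05, against 9994 of 19572 probe sets negative and 2.54% at that p. Their median was -0.19, and -0.49 with each array centred on its receptor median. Uqcrc2, of complex III, had -0.52 ± 0.20 (SE), and Sdha and Sdhd, of complex II, -0.52 ± 0.26 and -0.50 ± 0.21. All 9 heat shock chaperones were negative, none at an unadjusted p under 0.05. Their median was -0.31, which was -0.13 without citrus pool 4, -0.50 without vehicle pool 4 and -0.61 with the centring on receptors. Dnajb1 had -0.49 ± 0.29, Hspe1 -0.39 ± 0.21 and Hspa1b -0.39 ± 0.44. The level of Hspa1b varied widely between pools, with means of 11.53 (SD 1.43, n = 4) under citrus and 10.41 (SD 1.52, n = 4) under vehicle in GFP+ cells, and the stimuli overlapped in both gates.

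Markers of cells that are not neurons were read as a check on what the gates held. For sustentacular cells, the supporting cells of the epithelium, 12 of 13 markers had a negative difference, with 1 at an unadjusted p under 0.05, against 9994 of 19572 probe sets negative and 2.54% at that p. Their median was -0.49, and -0.79 with the centring on receptors. Cbr2 had -1.19 ± 0.49 (SE), Sec14l3 -0.99 ± 0.54 and Sox2 -0.82 ± 0.38. Among xenobiotic enzymes, which those cells express, 18 of 22 were negative and 0 had an unadjusted p under 0.05, with a median of -0.34, which the centring moved to -0.64, and Cyp2f2, Cyp2a5 and Cyp2g1 had -0.97 ± 0.53, -0.89 ± 0.54 and -0.77 ± 0.49. Both arrays of vehicle pool 1 were low here. The Cyp2g1 level was 11.38 in its GFP- array, against 16.72, 16.41 and 16.03 in the other vehicle GFP- arrays, and 12.13 in its GFP+ array, against 15.01, 15.40 and 14.44. For Cbr2 the values were 8.84 against 13.94, 13.48 and 12.84 in GFP- cells and 9.99 against 13.28, 13.55 and 11.89 in GFP+ cells. Without that pool the medians were -0.15 for sustentacular markers, -0.06 for xenobiotic enzymes and 0.02 for cycling progenitors.

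White blood cell markers marked the GFP- gate in both stimuli. Their median level lay between 10.8 and 12.8 in GFP- arrays and between 4.83 and 5.65 in GFP+ arrays, the latter near the median of negative controls. Of 21 markers, 0 had an unadjusted p under 0.05 for a difference between stimuli, and the median was -0.11. Over all probe sets 2.5% had such a p with higher and 2.54% with lower enrichment. Ly6c2, a monocyte surface protein, had -1.03 ± 0.58 (SE), Csf1r, a macrophage receptor, -0.85 ± 0.62, and Lyz2, a lysozyme, -0.75 ± 0.75. Median enrichment of this list was -7.86, -7.87, -5.93 and -7.59 in vehicle pools 1 to 4 and -6.04, -7.92, -6.91 and -7.80 in citrus pools 1 to 4, so the stimuli overlapped. The part of these cells in the receptor values was not tested.

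**Figure D5:**
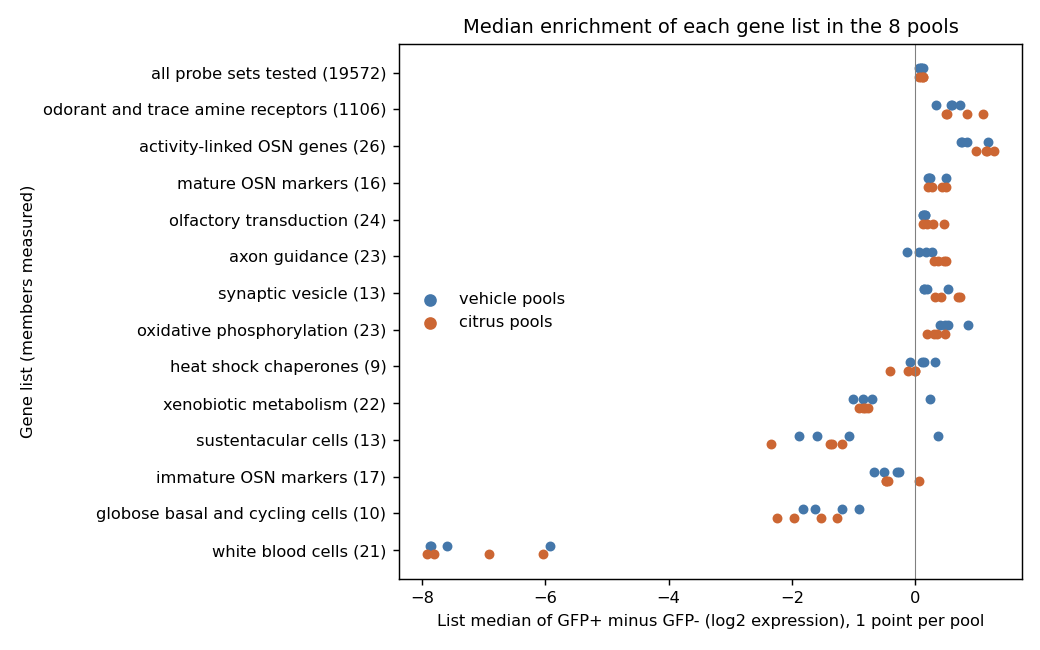
Median enrichment (GFP+ minus GFP-, log2) of each gene list in the 8 pools, 1 point per pool (blue, vehicle; orange, citrus), with the number of genes measured in brackets. White blood cell markers lie between -7.92 and -5.93 in both stimuli, the sustentacular and xenobiotic lists of vehicle pool 1 lie at 0.37 and 0.24 and apart from the other pools, and in most lists the stimuli overlap.

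The 10 genes other than receptors with the smallest p did not pass the threshold. Besides Camk2n1, they were Dhrs11, a short-chain dehydrogenase, with -1.23 ± 0.21 (SE, limma, adjusted p = 0.514), Abcb6, a membrane transporter, with -1.02 ± 0.21, Srrd with -1.15 ± 0.24, and Cmklr1, the chemerin receptor, with -1.19 ± 0.25. Mif, a cytokine, had -0.94 ± 0.20, the developmental gene Mab21l2 1.06 ± 0.23 and the scavenger receptor Stab1 -0.98 ± 0.22. Deup1, which acts in centriole formation of multiciliated cells, had 0.98 ± 0.22, and Vhl, a part of a ubiquitin ligase, -0.90 ± 0.20. Apart from Camk2n1, which exceeded the 95th percentile of negative controls on 3 arrays, these 9 genes exceeded it on 0 arrays. Their citrus and vehicle pools did not overlap, as the choice by p favours.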

How the data were processed

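RNA of sorted cells was measured on 16 Clariom S arrays from 50 to 100 ng of total RNA, per the labels' protocols. The values of 28846 probe sets were deposited on a log2 scale. The submitters' processing notes name Affymetrix Expression Console, and 1 label names a gene-level SST-RMA signal (multi-array averaging after a signal space transformation). The sources used here give neither version nor genome build. That transformation can stretch the scale, so log2 differences need not equal log2 mRNA ratios. Arrays have no read depth, and their number limits the precision.

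Of the probe sets, 19572 had 1 gene symbol and were tested, 2634 had no symbol here and 6640 were controls. Where a symbol had several probe sets (55 symbols), all of them entered the tests and counts. The brightest stood for the symbol only for Olfr353, Olfr1284, Olfr704, S100a5, Omp and members of the lists. Receptors were 1091 Olfr and 15 Taar probe sets, with class I taken as MOR families up to 42.

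GFP+ and GFP- arrays of 1 number were taken as 1 pool, since 24 mice in threes make 8 pools, which the labels do not state outright. GFP+ minus GFP- values of 4 odor and 4 vehicle pools were compared with limma 3.58.1 in R 4.3.3 (two-sided, Benjamini-Hochberg over all tested probe sets, threshold 0.05). P-values in limma rest on the spread between these pools, moderated for each gene by the spread of the other probe sets. Errors beside differences are the model's standard errors. Over all probe sets, odor and vehicle pools of 1 number correlated above 0.1 for every number, so a fit with those pairs as a block, added after the data were seen, is given where it changes a call. Named genes were the 10 receptors and the 10 other genes with the smallest p, Olfr353, Olfr1284 and Olfr704 with their 3 most correlated receptors, S100a5, Omp and up to 3 members with the largest difference of each described list. Neighbours and receptors with like start sequences, Pcdh10 gate levels and the pools named as apart were chosen after values were seen. Members and lists were chosen with earlier results of these data known. The procedure was tested on simulated data, in which the spread was independent between pools. The simulation thus did not cover the deviations that pools of 1 replicate number share. Figures used matplotlib 3.10.9.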

Additional observations from a re-analysis of the deposited data

Results flagged for a closer look

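Olfr1284 had a larger gate difference in citrus than in vehicle pools, by 2.46, in a test of the difference itself (limma, adjusted p = 0.0299, higher in 4 of 4 citrus pools). With odor and vehicle pools paired by replicate number the adjusted p in limma was 0.0898, which ends the call. For single pools, the highest or lowest value was set against the others of its stimulus for 58 genes, in 116 groups of 4 pools. In 8 of these groups 1 pool stood apart, and chance gives about 1 in 20.

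Citrus pool 3 stood apart for 3 genes. Olfr704 was at 2.74 there and between 0.59 and 0.69 in the other citrus pools, Olfr1183 was at 0.71 against -0.72 to -0.48, and Camk2n1 was at 1.28 against 0.61 to 0.69. In vehicle pool 1 Cyp2f2 was at 0.78 and between -1.73 and -1.44 in the others, Kcnk4 was at 0.56 against -0.28 to -0.19, and Ly6c2 was at -8.54 against -9.22 to -9.12. Syn1 was at -0.89 in vehicle pool 2, and Abcb6 was at 0.57 in vehicle pool 4, against 1.10 to 1.17 in the others.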

How the results depend on the processing

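The count of probe sets past the threshold, and of receptors among them, was 1 and moved between 0 and 2. It was 2 with each array centred on its median over all probe sets, over mature neuron markers or over receptors, where Olfr353 joined Olfr1284. It was 0 with the replicate block across stimuli, 0 with no replicate block for the gates, and between 0 and 1 when single pools were left out. With the pool as a random effect, or with a trended and robust prior, the 1 probe set was Olfr353 (limma, adjusted p = 0.0232 and 0.0191), and Olfr1284 had 0.586 and 0.238. Over all alternatives the adjusted p of Olfr1284 in limma ranged from 0.00873 to 0.999, the latter with no replicate block. Pool weights, the floor at background and the test of all probe sets kept its call. The filter on dim probe sets left out Olfr353 and Olfr704, and Olfr1284 passed it only through GFP+ arrays, where it is high, so its call under the filter is no support.

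Signs turned for S100a5 and Omp, whose differences were near 0, for Lyz2 and for 4 genes near background. S100a5 was at 0.0101 with each array centred on its median over all probe sets, and between -0.116 and 0.0487 when single pools were left out. It was above 0 without citrus pool 4 (0.0247), vehicle pool 2 (0.0487) or vehicle pool 4 (0.0129). Omp was between -0.162 and 0.0045, above 0 without vehicle pool 4, and Lyz2 between -1.16 and 0.0391, above 0 without vehicle pool 3. With values under the background median set to it, Mab21l2, Olfr1453 and Kcnk4 were at -0.0177, which is the background's own difference, and Grk3 at -0.18. Cmklr1, Stab1, Cdk1 and Neurog1 were also at -0.0177 there, so nothing of their differences remained. The replicate block across stimuli changed no other call of a named gene. With 4 pools per stimulus, and signal below the 95th percentile of negative controls for Olfr353 and Olfr704, the data limit what can be told apart.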
